A study of Mus musculus with 21 samples.

Results

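Gene expression in cultured Myc-CaP cells that had lost IRE1α was compared with that in wild-type cells, using 8 of the 21 libraries of a study that also sequenced 13 tumours grown from these cells. The 8 libraries are those of the knockout (KO) lines KO1, KO2 and KO3, with 2 libraries each, and of the wild-type (WT) line, with 2 libraries. They were taken by name from a table of 45706 genes, and 12254 genes with enough counts were tested. Myc-CaP cells come from a prostate tumour of a mouse with a Myc transgene. Each KO line was made with CRISPR Cas9 and the same guide RNA against the gene of IRE1α, Ern1, and all 8 libraries are from cells in DMEM with serum, with no added agent named. The labels do not say whether a line is a single clone, whether WT cells had been through Cas9, or whether the 2 libraries of a line came from separate cultures, so the p-values speak only of how far these libraries vary, which may be technical. There is only 1 WT line, so changes due to the loss of IRE1α and changes that the 3 KO lines share for another reason cannot be told apart.

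IRE1α is a sensor in the membrane of the endoplasmic reticulum (ER), the compartment where secreted and membrane proteins are folded. When unfolded proteins gather, its RNase domain cuts an intron out of Xbp1 mRNA, so that the transcription factor XBP1s is made, which raises genes for protein entry, folding, glycosylation and export. The other arms of this unfolded protein response run through ATF6, which raises chaperone genes, and PERK, which acts through ATF4 on amino acid and stress genes. Secretory cells such as those of the prostate epithelium are known to depend on this machinery.

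The guide matched Ern1 exon 2, in the coding sequence, at chr11:106458942-106458961 in GRCm38, in the direction of transcription. It is shown because it made the KO lines, 5′ to 3′ with the bases that follow it in the transcript in capitals, which hold the PAM needed by Cas9.
Ern1 guide: gcttgcatgctgttagcaagAGG
Ern1 mRNA stood at 121 and 138 CPM in the WT libraries and at 176 to 203 CPM (median 191) in the KO libraries. All KO libraries lay above both WT libraries (log2 fold change 0.56 ± 0.09 (SE), adjusted p = 0.00341 by edgeR). That call was lost without WT replicate 1. Counts per gene cannot show a short edit in the sequence, so this level does not check the knockout. Xbp1, the RNA that IRE1α cuts, stood at 117 and 115 CPM in WT, at 55.8 and 54.5 CPM in KO1, at 67.99 and 76.02 CPM in KO2, and at 99.5 and 90.8 CPM in KO3. The groups did not overlap, KO1 was lowest and KO3 nearest to WT, and the lines differed from each other (F test over the 3 lines in edgeR, adjusted p = 7.06e-05). Xbp1 was called lower in each line, but not in the fit that pools the lines, where its log2 fold change was -0.64 ± 0.21 (SE) and its adjusted p 0.0668 by edgeR.

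Levels are CPM, counts scaled to library size with TMM. Total counts ran from 18105538 to 25068254 per library, and TMM factors were 0.904 and 0.910 in WT and 1 to 1.08 in KO. The first principal component of log2 CPM, with 43.9% of the variance, put WT at one end, KO1 and KO2 at the other and KO3 in between, and the second, with 24.4%, set KO3 apart. Among markers of luminal prostate epithelium Foxa1 was at 135 to 183 CPM and Hoxb13 at 26.5 to 36.1 CPM in all libraries, but Epcam was at 0 in every library and Krt18, Cdh1 and Pbsn were below 1 CPM. Krt8 was at 22.6 to 24.01 CPM in WT and 26.8 to 158 CPM in KO, highest in KO3. Markers of basal cells, endothelium and leukocytes summed to at most 2.61 CPM in any library. Neuroendocrine markers summed to 55.5 and 56.8 CPM in WT and 39.6 to 79.6 CPM in KO, lowest in KO3, and nearly all of this was Ncam1. Fibroblast markers summed to 14.4 to 14.7 CPM in WT and 16.3 to 21.0 CPM in KO, nearly all of it Pdgfra. In such bulk RNA, fewer cells of a kind and less RNA per cell cannot be told apart.

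The first question was which genes differ between KO and WT cells when every KO line is asked to move by itself. In the fit that pools the 6 KO libraries, 1808 of 12254 genes were called at an adjusted p threshold of 0.05 in edgeR (14.8%), 1196 lower in KO (9.76%) and 612 higher (4.99%). That fit takes the 6 KO libraries as independent, although libraries of a line correlated at 0.54 by limma voom. When each line was set against WT, 1598 genes were called in all 3 lines with the same sign (13.0%), 1105 lower (9.02%) and 493 higher (4.02%). Of these, 1065 lower and 465 higher were also called in the pooled fit. The 3 contrasts share the 2 WT libraries, so that agreement between lines is not independent. Changes were mostly small. The median size in the line nearest to WT was 0.47 on the log2 scale for genes lower in every line and 0.39 for those higher, while 177 fell and 45 rose by 2-fold or more in each line. All 6 KO libraries lay below both WT libraries for 2360 genes (19.3%) and above both for 1972 (16.1%). The pooled count was 378 without WT replicate 1, 428 without WT replicate 2, 4315 without line KO3, 1162 without KO1 and 1137 without KO2, and it was 37 with the libraries of each line summed. The count over every line was 795 without WT replicate 1, 946 without WT replicate 2 and 986 without KO3 replicate 2.

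Among genes whose log2 CPM averaged 2 or more, the 12 falls with the largest change in the line nearest to WT joined enzymes of metabolism to parts of the secretory machinery. Xdh, the xanthine dehydrogenase of purine breakdown, was at 69.7 and 75.02 CPM in WT and 2.49 to 10.4 CPM (median 9.09) in KO. Cyp2b10, a cytochrome P450 that oxidises foreign compounds, was at 22.7 and 23.4 CPM in WT and 2.32 to 3.74 CPM (median 3.02) in KO. Adh1, an alcohol dehydrogenase that also acts on retinol, was at 27.1 and 26.1 CPM in WT and 2.65 to 6.08 CPM (median 4.76) in KO. For these 3 enzymes no KO library came near a WT library, and log2 fold changes were -3.27 ± 0.41 (SE), -2.91 ± 0.17 (SE) and -2.58 ± 0.25 (SE). Cyp2b10 had log2 fold changes of -2.96, -2.83 and -2.94 in KO1, KO2 and KO3, while for Xdh and Adh1 the KO2 libraries were lowest and the lines differed (adjusted p = 5.13e-06 and 0.000901 by the F test in edgeR). Steap4, a metalloreductase, went from 49.4 to 9.46 CPM, and the lipid phosphatase gene Ppapdc1b went from 41.2 to 8.31 CPM. Prom2, a membrane protein of plasma membrane protrusions, went from 81.1 to 15.6 CPM and Spink8, a serine protease inhibitor, from 31.7 to 6.55 CPM. Both were lowest in KO1 and highest among KO lines in KO3 (adjusted p = 2.50e-05 and 0.000711 by the F test in edgeR).

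The other 5 of the 12 are the parts of the secretory machinery, and belong to the ER or its vesicles. Sec24d, a coat protein that picks cargo for vesicles leaving the ER, was at 156 and 163 CPM in WT and 28.98 to 37.3 CPM (median 30.4) in KO, a log2 fold change of -2.35 ± 0.09 (SE) (adjusted p = 1.59e-06 by edgeR). Ssr2, a subunit of the translocon-associated protein complex, was at 327 and 309.8 CPM and 87.97 to 108 CPM (median 93.6). Ostc, a subunit of the oligosaccharyltransferase, was at 155 and 162 CPM and 39.3 to 49.2 CPM (median 45.2). For these 3 genes all KO libraries lay far below both WT libraries, and differences among the lines did not pass (adjusted p = 0.147, 0.85 and 0.0648 by the F test in edgeR). Manf, a protein kept in the ER and released under stress, went from 256 to 65.9 CPM, and Ero1lb, an oxidase that makes disulfide bonds, from 14.8 to 3.50 CPM. Of the 12 genes, Sec24d, Ssr2, Ostc and Adh1 lie on chromosome 3, whose genes were lower as a whole. Some genes that averaged below 2 in log2 CPM over the 8 libraries fell further. That average includes the KO libraries, so it does not mean a low level in WT. Stra6, a membrane receptor for retinol uptake, was at 101 and 101 CPM in WT and 0.252 to 3.99 CPM (median 1.61) in KO, and Bhlha15, which encodes a factor that shapes secretory cells, at 18.02 and 14.6 CPM and 0.302 to 0.628 CPM (median 0.342). Akr1c18, which inactivates progesterone, was at 17.6 and 15.9 CPM in WT and at most 0.163 CPM in KO, and Folh1, the prostate-specific membrane antigen, at 8.40 and 7.39 CPM and at most 0.518 CPM. No KO library of these genes came near WT. These 4 were named after their values were seen.

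**Figure D1:**
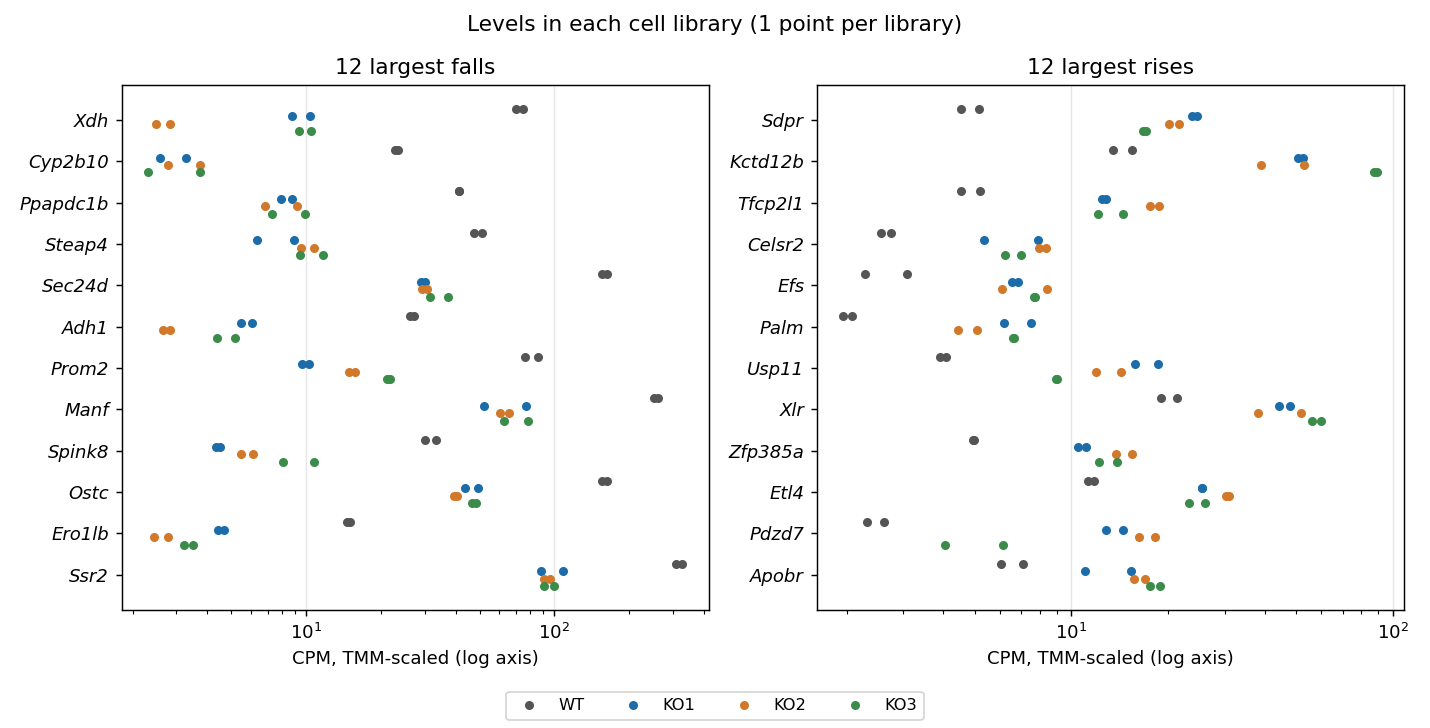
Levels of the 12 largest falls (left) and 12 largest rises (right), 1 point per library, on a log axis of CPM, with WT in grey and the KO lines in colour. For every gene the 2 WT points lie apart from all 6 KO points, KO2 lies below the other KO lines for Xdh, KO3 above them for Kctd12b and below them for Pdzd7, and all 3 KO lines are apart for Prom2.

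Beyond single genes, 105 functional classes were counted, and the 3 with the largest share of members lower belong to the early secretory pathway. The proteins that carry new chains into the ER (signal recognition particle, translocon, signal peptidase) had 23 of 27 tested members lower and none higher, with a median log2 fold change of -0.90, against 9.76% lower and a median of 0.02 over all tested genes. Spcs2, a signal peptidase subunit, was at 190.2 and 185 CPM in WT and 57.6 to 61.2 CPM (median 58.9) in KO, a log2 fold change of -1.66 ± 0.06 (SE) with lines at -1.66, -1.68 and -1.64. Hspa13, an Hsp70 family member of the ER that this class lists, fell by 1.65, and Ssr2 fell by 1.74. ER chaperones and disulfide isomerases had 33 of 43 lower and none higher, with a median of -0.92. Hyou1, a large Hsp70-like chaperone, was at 454 and 444 CPM in WT and 156 to 183 CPM (median 175) in KO, a log2 fold change of -1.39 ± 0.08 (SE). Txndc11, a thioredoxin-like ER protein, went from 53.1 to 16.2 CPM. The counts were 23 and 22 for the entry class and 22 and 24 for the chaperones without WT replicates 1 and 2. With the libraries of each line summed, 6 and 4 members passed.

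Genes of vesicle traffic out of the ER were the next block. COPII coat proteins, cargo receptors and p24 proteins had 35 of 45 members lower and none higher, with a median of -0.55 (22 without WT replicate 2, and 6 with the libraries of each line summed). Surf4, a cargo receptor, was at 408 and 389 CPM in WT and 143 to 165 CPM (median 152) in KO, a log2 fold change of -1.38 ± 0.07 (SE). Tmed3, a p24 protein, was at 111 and 116 CPM and 37.3 to 43.2 CPM (median 39.1), a log2 fold change of -1.51 ± 0.08 (SE). All KO libraries of both genes lay below WT, and no difference among the lines passed (adjusted p = 0.513 and 0.582 by the F test in edgeR). The COPI coat, Golgi tethers and golgins had 29 of 62 lower, with a median of -0.28, and Cog5, named after its value was seen, was the only one higher, at 0.36. Uso1, which tethers ER vesicles to the Golgi, went from 161 to 88.8 CPM, the COPI subunit gene Cope from 236 to 94.1 CPM and Cog6, of the Golgi tethering complex, from 71.1 to 35.8 CPM. That count was 13 and 15 without WT replicates 1 and 2, and 0 with the libraries of each line summed.

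The enzymes that build and attach N-glycans, the sugar trees of secreted proteins, had 26 of 49 members lower with a median of -0.43. Alg10b, a glucosyltransferase named after its value was seen, was higher, at 0.34. Magt1, an oligosaccharyltransferase subunit, was at 128 and 128 CPM in WT and 46.8 to 56.6 CPM (median 54.4) in KO, a log2 fold change of -1.27 ± 0.08 (SE). Alg2, a mannosyltransferase of the lipid-linked precursor, was at 55.2 and 51.7 CPM and 18.2 to 22.3 CPM (median 20.9), a log2 fold change of -1.37 ± 0.09 (SE). No KO library of either gene reached a WT library. The class median was lowest in KO3, at -0.39, -0.35 and -0.52 in KO1, KO2 and KO3. Nucleotide sugar transporters, which bring sugar donors into the ER and Golgi, had 7 of 19 lower, with medians of -0.25, -0.22 and -0.33. Slc35b1, which is known to carry ATP into the ER, was at 52.4 and 49.97 CPM in WT and 18.6 to 20.6 CPM (median 19.8) in KO, a log2 fold change of -1.37 ± 0.07 (SE). Slc35a2 and Slc35b2, carriers of UDP-galactose and of the sulfate donor PAPS, fell by 0.72 and 0.50. The N-glycan count was 16 without WT replicate 1, and the transporter count 2 without either WT library, when Slc35b2 lost its call. With the libraries of each line summed, 3 and 1 passed.

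**Figure D2:**
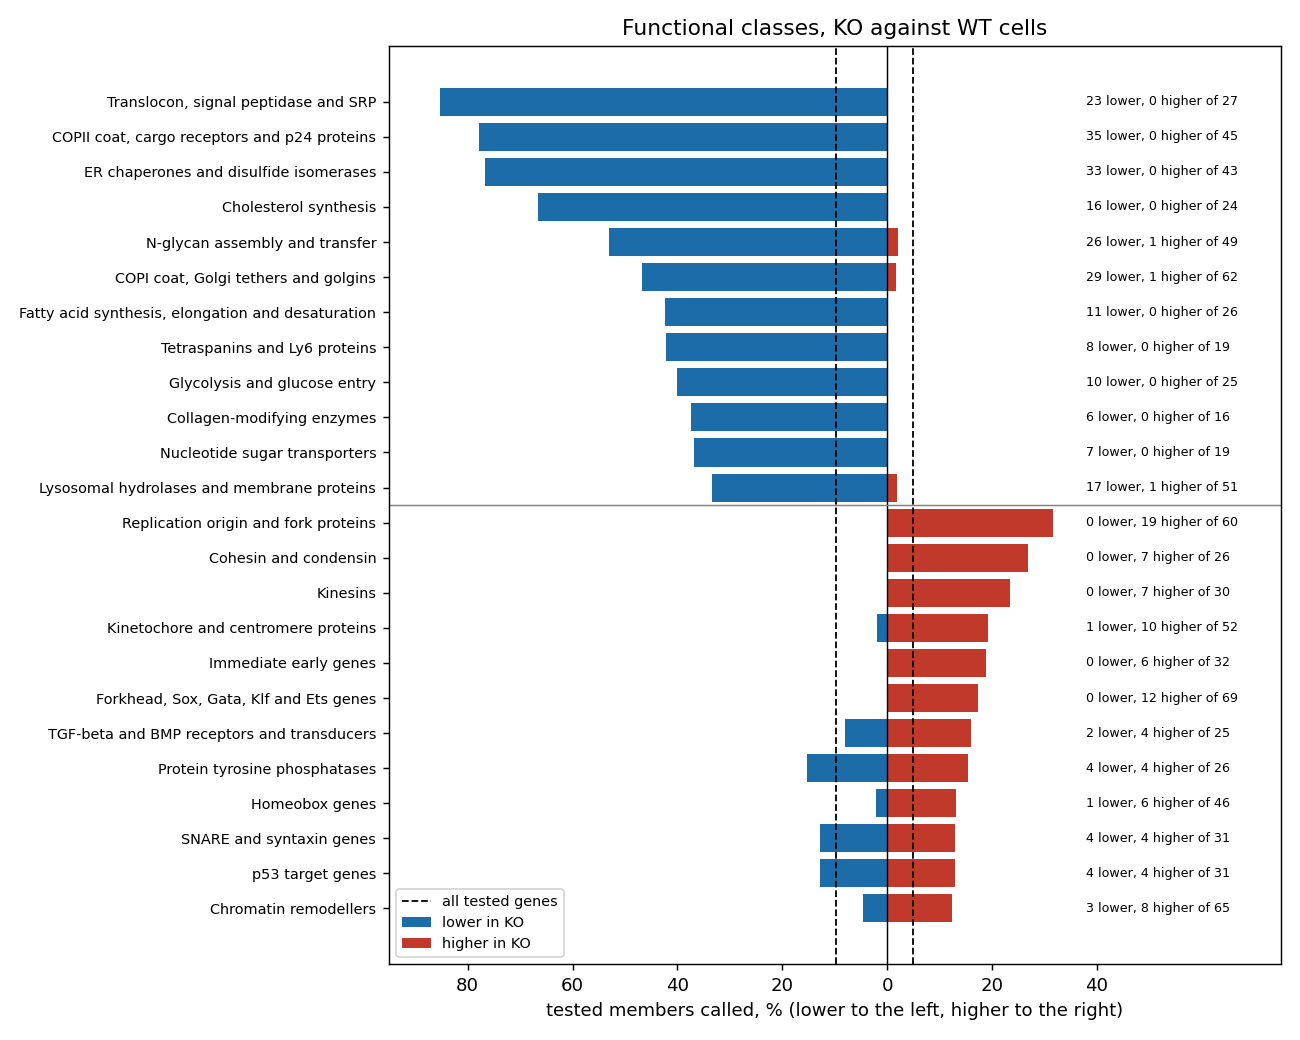
Share of the tested members of each class that was called lower (blue, left) or higher (red, right) in KO cells, for the 12 classes with the largest share lower and the 12 with the largest share higher. The dashed lines mark all tested genes, at 9.76% lower and 4.99% higher, and the share lower reaches 85.2% in the class of protein entry into the ER.

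Features of the encoded proteins, read from translated GENCODE transcripts of 11053 tested genes, gave a description that uses no list of gene names. Genes whose protein starts with a hydrophobic stretch and has no later one, as soluble proteins of the secretory route do, were lower in 171 of 649 cases (26.3%) and higher in 16 (2.47%). With later stretches as well, as in membrane proteins with a signal sequence, 78 of 428 (18.2%, 1 later stretch) and 75 of 360 (20.8%, 2 or more) were lower. With no first stretch, 139 of 894 proteins with 2 or more later stretches (15.5%, median -0.06) and 135 of 1228 with 1 (median 0.03) were lower. Proteins with neither kind of stretch were lower in 551 of 7494 cases (7.35%) and higher in 453 (6.04%), against 10.4% and 5.35% of all genes with a protein. Off chromosomes 3 and 16 the share lower was 23.3% for proteins with only a first stretch and 5.69% for proteins with neither. Whether a first stretch is cut off or stays as a membrane anchor was not predicted. Of 32 genes whose protein ends in a KDEL-type signal, which returns escaped proteins to the ER, 17 were lower in the pooled fit and in every line (53.1%) and none higher, with medians of -0.56, -0.66 and -0.34 in KO1, KO2 and KO3. Those named here were chosen after their values were seen. P4hb, the protein disulfide isomerase, was at 1806 and 1737 CPM in WT and 581 to 731 CPM (median 623) in KO, a log2 fold change of -1.46 ± 0.11 (SE). Hspa5, the main ER Hsp70 chaperone, was at 1447 and 1398 CPM and 485 to 618 CPM (median 593), a log2 fold change of -1.31 ± 0.10 (SE). Sdf2l1, Pdia6 and Calr, a chaperone partner, a disulfide isomerase and the lectin chaperone calreticulin, fell by 1.41, 1.47 and 0.90. The calcium-binding protein gene Rcn1 has the same signal and was at 475 ± 10.99 CPM (SD, n = 2) in WT and 439 ± 22.05 CPM (SD, n = 6) in KO, a difference that did not pass (adjusted p = 0.356 by edgeR). A match at the end of a sequence does not show where a protein resides.

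**Figure D3:**
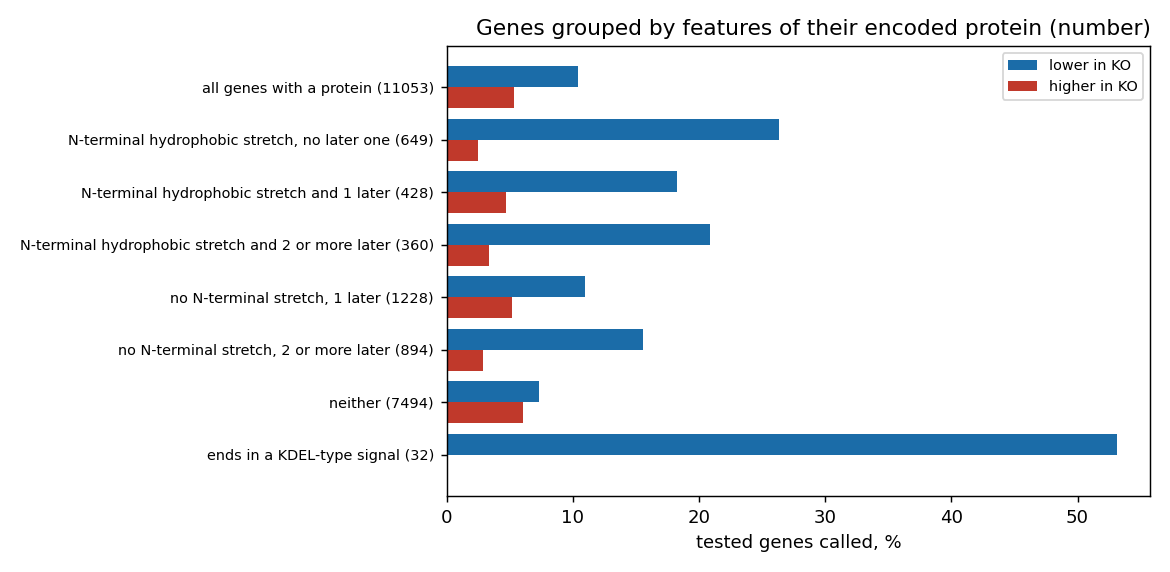
Share of tested genes called lower (blue) or higher (red) in KO cells, by hydrophobic stretches in the encoded protein and by a KDEL-type ending, with the number of genes in brackets. The share lower is 26.3% with only a first stretch, 7.35% with no stretch and 53.1% with the ending.

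Promoters of the falls were searched for the letters of sites that XBP1s and ATF6 are known to use. RefSeq promoters, from 250 bases before to 50 after the start in GRCm38.p6, were found by symbol for 8825 tested genes, 842 of them lower and 378 higher in every line. On either strand, the letters TGACGTGG (a UPRE-type site) were in 93 of 8825 promoters (1.05%), in 30 of the 842 lower ones (3.56%) and in 2 of the 378 higher ones (0.529%). The ER stress element (ERSE), CCAAT and CCACG with 9 bases between them, was in 16 of 8825 (0.181%) and in 10 of the 842 (1.19%). Its variant ERSE-II, ATTGG and CCACG with 1 base between them, was in 8 of 8825 (0.0907%) and in 2 of the 842 (0.238%). Those 2 genes lie on chromosomes 3 and 16. Within 6 secretory classes (entry, chaperones, degradation, N-glycans, COPII and COPI) 125 genes were lower in every line and 87 were not. The UPRE-type letters were in 13 of the 125 (10.4%) and 1 of the 87 (1.15%), and the ERSE in 9 of the 125 (7.20%) and 0 of the 87. Other letters were searched for comparison. The E-box CACGTG was in 12.7% of the 842 and 12.2% of all, and TGACGTCA (a CRE) in 2.38% and 3.89%. The parts of the ERSE taken alone were in 59.7% and 53.2% for CCACG, and in 46.3% and 44.1% for CCAAT. The site sequences that follow carry these letters in capitals within the 150 bases before the start, 5′ to 3′ on the strand of the gene, and were taken from RefSeq. Sec24d (at chr3:123267346-123267495, plus strand, UPRE-type letters 26 bases before the start) and Txndc11 (at chr16:11134533-11134682, minus strand, UPRE-type, 102 bases) are the falls named by rule that hold such letters there. Hspa5 (at chr2:34771940-34772089, plus strand, ERSE, 65 bases) and Dnajc3 (at chr14:118937782-118937931, plus strand, ERSE, 105 bases), a co-chaperone, are holders of an ERSE chosen after their values were seen.
Sec24d: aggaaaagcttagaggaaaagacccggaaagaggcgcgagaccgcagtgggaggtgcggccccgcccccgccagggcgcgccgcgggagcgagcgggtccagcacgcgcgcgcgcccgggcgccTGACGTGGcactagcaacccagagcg
Txndc11: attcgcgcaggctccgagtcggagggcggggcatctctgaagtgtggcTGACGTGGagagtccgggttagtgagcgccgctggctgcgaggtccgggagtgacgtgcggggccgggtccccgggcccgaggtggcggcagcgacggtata
Hspa5: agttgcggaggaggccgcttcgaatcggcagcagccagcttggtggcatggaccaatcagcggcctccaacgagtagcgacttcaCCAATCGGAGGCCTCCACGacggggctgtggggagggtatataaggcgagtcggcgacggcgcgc
Dnajc3: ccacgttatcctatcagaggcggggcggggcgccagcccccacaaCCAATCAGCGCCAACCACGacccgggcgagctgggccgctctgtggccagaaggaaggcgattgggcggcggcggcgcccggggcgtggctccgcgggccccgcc
Dnajc3 was at 151 and 157 CPM in WT and 63.5 to 79.6 CPM (median 70.6) in KO, a log2 fold change of -1.12 ± 0.09 (SE). A match is a description of letters in a window and no measure of binding.

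Cholesterol and fatty acid synthesis had falls too. Cholesterol synthesis had 16 of 24 members lower and none higher, and all 24 had a fold change below 0, with a median of -0.57. Cyp51, the sterol demethylase, was at 59.9 and 64.4 CPM in WT and 29.5 to 37.9 CPM (median 32.6) in KO. All KO libraries lay below WT, with a log2 fold change of -0.91 ± 0.10 (SE). Pmvk, a kinase of the mevalonate pathway, fell by 0.58. Synthesis, elongation and desaturation of fatty acids had 11 of 26 lower with a median of -0.27. Fasn, the fatty acid synthase, was at 538 and 571 CPM in WT and 242 to 338 CPM (median 251) in KO, a log2 fold change of -1.001 ± 0.14 (SE). Its KO3 libraries, at 330.5 and 338 CPM, lay above the other KO libraries and below WT (adjusted p = 0.000713 among lines by the F test in edgeR). The elongase gene Elovl6 and the desaturase gene Fads2 fell by 1.18 and 0.80. Without WT replicates 1 and 2 these counts were 8 and 9 for cholesterol and 4 and 3 for fatty acids, the latter was 17 without line KO3, and both were 0 with the libraries of each line summed. Other lipid classes had smaller shares lower, with 7 of 40 genes of phospholipid and triglyceride synthesis lower and 4 higher (median -0.04), and 4 of 25 genes of sphingolipid metabolism lower and none higher (median -0.13).

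Glycolysis and glucose entry had 10 of 25 members lower with a median of -0.43. Aldoc, the brain-type aldolase, was at 60.2 and 59.7 CPM in WT and 20.2 to 32.1 CPM (median 27.9) in KO, a log2 fold change of -1.15 ± 0.14 (SE). Pdk2, which holds back pyruvate dehydrogenase, fell by 0.58 and the glucose transporter gene Slc2a1 by 0.44, the latter call being lost without WT replicate 2. Lysosomal hydrolases and membrane proteins had 17 of 51 lower, and Dpp7, named after its value was seen, higher at 0.37. Lgmn, the protease legumain, went from 115 to 72.2 CPM, the sulfatase gene Galns from 29.8 to 19.3 CPM and the cathepsin gene Ctsz from 217 to 134 CPM. These 2 classes had KO3 closest to WT, with medians of -0.52, -0.47 and -0.19 for glycolysis and -0.46, -0.49 and -0.14 for lysosomes in KO1, KO2 and KO3. Without WT replicates 1 and 2 the counts were 4 and 2 for glycolysis and 1 and 1 for lysosomes, when Galns and Ctsz lost their calls. With the libraries of each line summed both counts were 0, and with limma voom and the line as a random block they were 6 and 7. Without line KO3 they were 19 and 35, glycolysis stood at 16 without KO3 replicate 2, and lysosomes at 11 without KO1 replicate 2 or KO2 replicate 1.

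Tetraspanins and Ly6 proteins, small proteins of the cell surface, had 8 of 19 members lower with a median of -0.52. Ly6c1 was at 181 and 169.6 CPM in WT and 53.1 to 90.3 CPM (median 85.4) in KO, a log2 fold change of -1.18 ± 0.18 (SE), with KO2 lowest. Tspan5 and Tspan3 fell by 0.62 and 0.55. Enzymes that modify collagen in the ER had 6 of 16 lower with a median of -0.38. Sparc, a secreted collagen-binding protein of that list, was at 648 and 657 CPM in WT and 385 to 487 CPM (median 443) in KO, a log2 fold change of -0.56 ± 0.09 (SE). The prolyl hydroxylase gene P4ha1 and the lysyl hydroxylase gene Plod3 fell by 0.50 and 0.39. Calls of Sparc, P4ha1, Plod3 and Tspan3 were lost without either WT library and that of Tspan5 without WT replicate 2. The counts were then 0 for collagen modification without either, and 2 and 1 for tetraspanins without WT replicates 1 and 2. The tetraspanin count was 5 without KO1 replicate 2 or KO2 replicate 1. Tetraspanin and collagen-modifying counts were both 0 with summed libraries, and 2 and 0 with limma voom and the line as a random block.

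Falls also ran wider than these classes, in smaller shares. The respiratory chain and ATP synthase had 23 of 83 members lower and none higher (median -0.27), the proteasome 9 of 46 (median -0.17), and Golgi glycosyltransferases and sulfotransferases 18 of 75 (median -0.15). ER-associated degradation, which removes misfolded proteins, had 10 of 37 lower (median -0.15), a smaller share than the folding and entry classes. Glutathione and related transferases had 10 of 35 lower, and transport and storage of zinc, iron and copper 11 of 35. Among solute carriers 34 of 192 were lower and 6 higher. In all, 70 of the 105 classes had more members lower than higher, 23 more higher and 12 as many of each. Over all tested genes 9.76% were lower and 4.99% higher, so such a tally leans to lower for any set of classes. The 4588 tested genes in any class were lower in 13.5% of cases and the 7666 in none in 7.50%, while 5.01% and 4.98% were higher.

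The 12 largest rises had mixed functions. Sdpr, a coat protein of caveolae, was at 4.54 and 5.16 CPM in WT and 16.7 to 24.6 CPM (median 20.9) in KO, a log2 fold change of 2.09 ± 0.19 (SE). Kctd12b, a BTB domain gene on the X chromosome, was at 15.4 and 13.5 CPM in WT, 51.7 and 45.98 CPM on average in KO1 and KO2, and 89.5 and 87.5 CPM in KO3. KO3 was thus highest (adjusted p = 0.000176 among lines by the F test in edgeR), with a log2 fold change of 2.10 ± 0.34 (SE) over all lines. Pdzd7, a scaffold protein of hair cells, was at 2.32 and 2.61 CPM in WT and 4.04 to 18.2 CPM (median 13.6) in KO, with KO3 nearest to WT. Tfcp2l1, a grainyhead-like transcription factor, went from 4.88 to 14.7 CPM. Usp11, a deubiquitinase, went from 3.99 to 13.1 CPM and Xlr, an X-linked germ cell and lymphocyte gene, from 20.2 to 49.7 CPM. Celsr2, an atypical cadherin, rose by 1.42, although it lies on chromosome 3. Efs, Palm, Zfp385a and Apobr, which encode an adaptor protein, a membrane-bound phosphoprotein, a zinc finger protein and a lipoprotein receptor, and Etl4 rose by 1.42, 1.59, 1.37, 1.28 and 1.22. Calls of Kctd12b, Usp11 and Pdzd7 were lost without either WT library, Apobr without WT replicate 2, and Pdzd7 also without KO1 replicate 1 or 2 or KO2 replicate 1.

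The 4 classes with the largest share of members higher belong to the chromosome cycle. Proteins of replication origins and forks had 19 of 60 members higher and none lower, with a median of 0.42, against 4.99% higher over all tested genes. Mcm6, a subunit of the replicative helicase, was at 43.3 and 43.7 CPM in WT and 56.9 to 65.6 CPM (median 62.03) in KO, a log2 fold change of 0.50 ± 0.08 (SE). Dbf4, which activates the kinase that fires origins, was at 26.8 and 24.99 CPM in WT, 60.6 and 58.5 CPM in KO1 and KO2 and 38.2 CPM in KO3. Its rise was smallest in KO3 (adjusted p = 9.83e-05 among lines by the F test in edgeR). Uhrf1, which links replication to DNA methylation, rose by 0.65. Kinetochore and centromere proteins had 10 of 52 higher, with a median of 0.65, and Cenpb, named after its value was seen, lower at -0.33. Ndc80, which joins kinetochores to microtubules, was at 12.4 and 11.95 CPM in WT and 19.3 to 32.00 CPM (median 27.1) in KO. Sgol2a, which protects cohesin at centromeres, rose by 1.10. Cohesin and condensin had 7 of 26 higher and kinesins 7 of 30, with none lower in either. Esco2, an acetylase of cohesin, went from 9.01 to 13.6 CPM. Smc5 and Pds5b, of SMC complexes and cohesin, rose by 0.54 and 0.38. The kinesin genes Kif20b, Kif2c and Kif7 rose by 0.93, 0.78 and 0.84.

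These counts moved with the libraries and the fit. With the libraries of each line summed, no member of the replication, kinetochore, cohesin or kinesin class passed, and with limma voom and the line as a random block 4, 1, 0 and 0 did. Without WT replicate 1 or without WT replicate 2, none of their members passed, and each gene named from them lost its call. Without line KO3, 43 of 60 replication, 44 of 52 kinetochore, 16 of 26 cohesin and 18 of 30 kinesin genes passed. Without KO1 replicate 2 and KO2 replicate 1 the replication count was 11 and 7, that of kinetochores 4 and 4, of cohesin 4 and 3, and of kinesins 1 and 1. Without KO1 replicate 1 they were 12, 5, 4 and 3, and without KO2 replicate 2 they were 13, 5, 4 and 3. Without KO3 replicate 1 they were 27, 21, 12 and 13, and without KO3 replicate 2 they were 24, 27, 12 and 11. Among promoters of the 378 genes higher in every line, the letters TTTCCCGC of an E2F-type site were in 29 (7.67%), against 2.44% of all 8825, and TTTGGCGC, another such site, in 12 (3.17%), against 1.21%. In the 34 of these promoters that belong to the classes of replication, kinetochores, cohesin and kinesins, the counts were 3 and 5. The CRE letters TGACGTCA were in 3 of these 34 (8.82%), against 3.89% of all 8825. Mcm6 (at chr1:128359706-128359855, minus strand, 2 copies of TTTGGCGC, the first 110 bases before the start) and Xlr (at chrX:53797707-53797856, minus strand, TTTCCCGC, 27 bases) are shown as rises named by rule that hold such letters, in capitals.
Mcm6: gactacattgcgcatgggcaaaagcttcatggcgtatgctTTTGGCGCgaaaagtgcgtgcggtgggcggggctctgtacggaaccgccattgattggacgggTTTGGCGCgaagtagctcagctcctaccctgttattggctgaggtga
Xlr: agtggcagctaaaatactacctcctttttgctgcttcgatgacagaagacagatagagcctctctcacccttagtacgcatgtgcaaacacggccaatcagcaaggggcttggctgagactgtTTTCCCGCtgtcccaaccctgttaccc

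Other classes with a larger share higher were mostly regulators. Immediate early genes had 6 of 32 higher and none lower. Ier5 was at 58.2 and 54.6 CPM in WT and 81.7 to 111 CPM (median 92.6) in KO, the antiproliferative gene Btg1 went from 64.3 to 96.7 CPM, and Dusp6, a phosphatase of the MAP kinase ERK, from 48.2 to 68.3 CPM. The list of Forkhead, Sox, Gata, Klf and Ets transcription factor genes, which also holds the grainyhead-like Tfcp2l1, had 12 of 69 higher and none lower. Etv4, an Ets factor, was at 19.1 and 17.6 CPM in WT and 26.5 to 34.6 CPM (median 30.04) in KO, and Sp3 and Tfcp2l1 of that list rose by 0.36 and 1.59. Homeobox genes had 6 of 46 higher, among them Hoxd8 and Hoxd9 at 1.18 and 0.65 and Pou2f1 at 0.55, while Irx3 was lower at -0.90. Chromatin remodellers had 8 of 65 higher, including Hells, Smarcd1 and Ino80e at 0.62, 0.38 and 0.38, and Tet2, Actl6a and Smarcal1 lower. TGF-beta and BMP signalling had 4 higher of 25, namely the receptor genes Tgfbr1 and Acvr2a, the ubiquitin ligase gene Smurf2 and the inhibitor gene Smad7, and 2 lower, Bmpr1b and Smad9. Without WT replicate 1 and without WT replicate 2 the counts higher were 1 and 1 for immediate early, 2 and 1 for the factor families and 0 and 2 for homeobox genes, and 0 for remodellers and TGF-beta genes in both cases. Calls of Btg1, Sp3, Hoxd9, Hells, Smarcd1, Ino80e, Tgfbr1, Smurf2 and Smad7 were lost in both cases, those of Dusp6, Hoxd8 and Pou2f1 without WT replicate 1 and those of Ier5 and Etv4 without WT replicate 2. The factor families stood at 7 without KO1 replicate 2. Remodellers stood at 5 without KO1 replicate 1 and 3 without KO1 replicate 2 or KO2 replicate 1. TGF-beta genes stood at 2 without KO1 replicate 1, KO1 replicate 2 or KO3 replicate 2, and at 1 without KO2 replicate 1.

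In 3 of the 12 classes with the largest share higher, as many members were lower. Protein tyrosine phosphatases had Ptprj, Ptpn7, Ptprv and Ptpn12 higher and Ptpn13, Ptp4a3, Ptprf and Ptpra lower, of 26. Ptprj, a receptor-type phosphatase, went from 10.7 to 17.1 CPM. Ptpn7 was at 0.0966 and 0.109 CPM in WT, a few counts per library, and 0.554 to 1.21 CPM in KO. Ptprv was at 1.79 and 1.85 CPM in WT and 2.95 to 4.83 CPM (median 4.24) in KO. SNARE and syntaxin genes, which fuse vesicles with membranes, had 4 members higher, among them Vamp1, Stx6 and Stx1a, and Stx5a, Stx18, Snap29 and Snap47 lower, of 31. Stx18 and Stx5a serve the ER and early Golgi and fell by 0.50 and 0.51, while Stx1a serves the plasma membrane and rose by 0.55. Vamp1 and Stx6 rose by 0.44 and 0.49. Targets of p53 had Trp53inp1, Ddb2, Rrm2b and Gtse1 higher and Sulf2, Ephx1, Zmat3 and Sesn1 lower, of 31. Trp53inp1 went from 34.9 to 70.2 CPM, Ddb2 from 8.66 to 13.4 CPM and Rrm2b from 27.5 to 40.3 CPM. No rise of these 3 classes passed without WT replicate 1 or without WT replicate 2, and the count of p53 targets was 2 without KO1 replicate 2 or KO2 replicate 1 and 7 without either KO3 library.

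Some large classes showed few calls. Ribosome biogenesis had 3 of 90 (Rrp1 and Wdr3 lower, Noc3l higher), the nuclear pore 2 of 60 (Sec13 lower, Nup210 higher), F-box proteins 2 of 49 (Fbxw8 lower, Fbxo5 higher) and the mitochondrial ribosome 3 of 77 (Mrps21, Mrps28 and Mrpl17 lower), all below the 14.8% of all tested genes. Sec13 is also a COPII coat protein. Without line KO3 these 4 counts were 17, 28, 7 and 12. Cebpg was the only one of 35 ATF4 targets called, higher at 0.38, and Hist1h2bc the only one of 38 replication-dependent histone genes, lower at -0.67. A small count did not mean small values in the last 2 classes, in which the lines went apart. ATF4 targets had medians of 0.55, 0.62 and -0.23 in KO1, KO2 and KO3, and 29 of the 35 were called without line KO3, 5 and 6 without KO3 replicate 1 or 2 and 0 without any other library. Histone genes had medians of 0.54, 0.51 and -0.60. The labels give the RNA as polyadenylated, and mRNAs of these histone genes mostly lack a poly(A) tail.

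The second question was where the KO lines differ among themselves. The F test over the 3 lines passed for 3713 of 12254 genes (30.3%). Of the 35 ATF4 targets 32 passed (91.4%), and KO3 was lowest in all 32. Of 52 kinetochore genes 41 passed, again with KO3 lowest in all 41, and of 60 replication genes 41 passed, with KO3 lowest in 37. Cholesterol synthesis had 14 of 24 past the test, with KO3 highest, hence nearest to WT, in all 14. Lysosomal genes had 33 of 51 past it with KO3 highest in 30, and ER chaperones 24 of 43 with KO3 highest in 19. By contrast, 3 of 27 genes of protein entry (11.1%), 9 of 49 of N-glycans (18.4%) and 11 of 62 of COPI and Golgi tethers (17.7%) passed. The COPII class, with 14 of 45 (31.1%), was near the share of all tested genes. For 97 genes KO3 was called in one direction and both KO1 and KO2 in the other. The count of 3713 was 2384 without KO3 replicate 1 and 2136 without KO3 replicate 2.

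**Figure D4:**
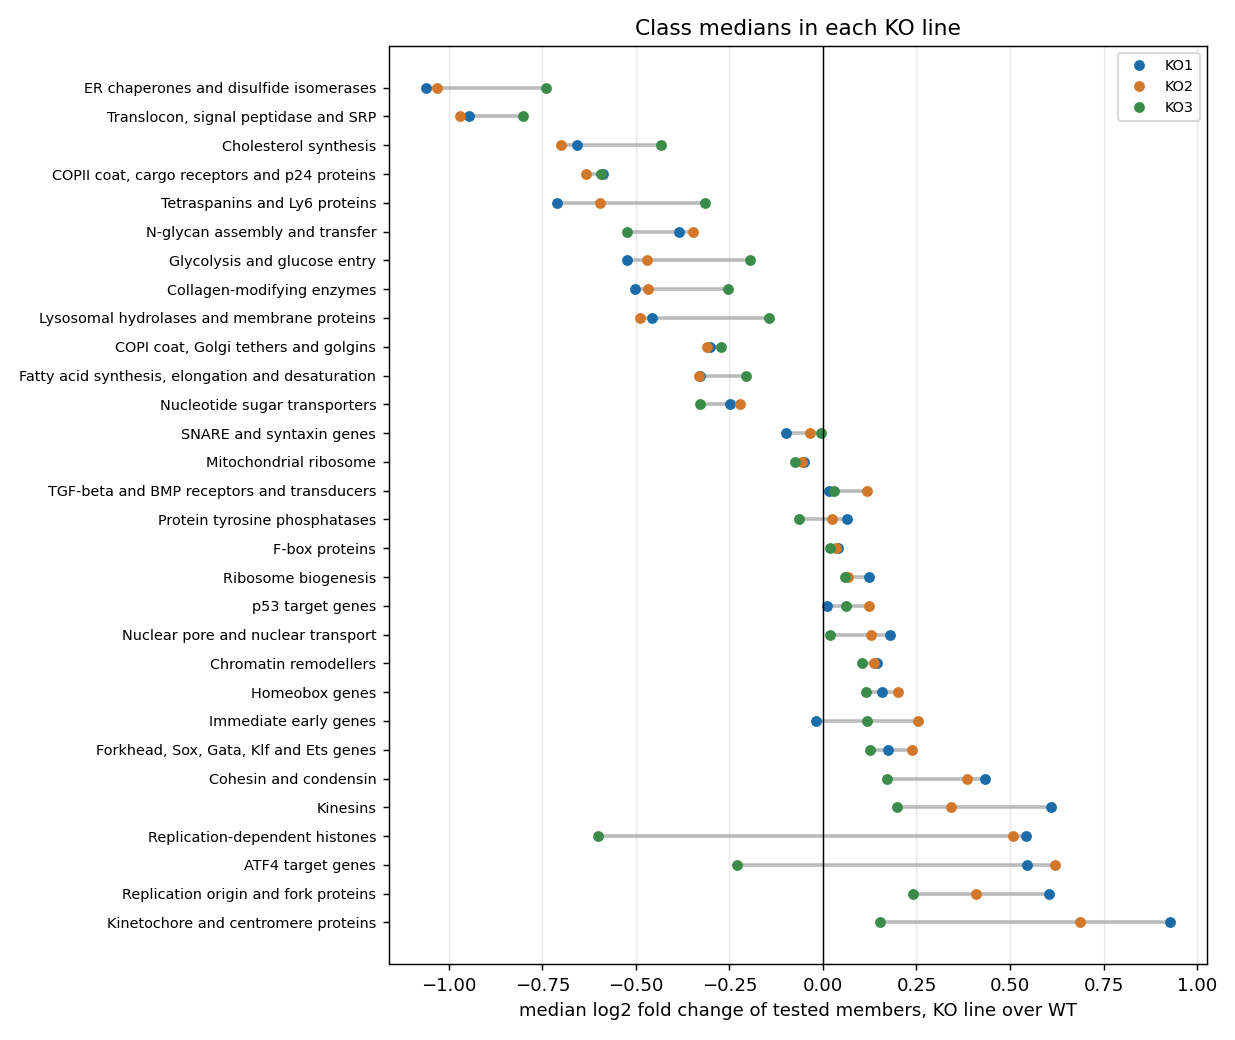
Median log2 fold change of the tested members of 30 classes in KO1, KO2 and KO3 against WT, with a grey bar from the lowest to the highest line. The lines lie close for COPII, COPI and ribosome classes, and KO3 lies on the other side of 0 from KO1 and KO2 for ATF4 targets and histones.

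Falls were also unevenly spread over the genome. On chromosome 3, 221 of 632 tested genes were lower (35.0%) and 5 higher, with a median log2 fold change of -0.31, a median ratio of 0.805, and 80.7% of the genes below 0. On chromosome 16, 74 of 364 were lower (20.3%) and 4 higher, with a median of -0.17, a ratio of 0.891. On all other chromosomes together 901 of 11258 were lower and 603 higher, with a median of 0.04. The 3 lines were alike, at -0.32, -0.32 and -0.30 on chromosome 3 and -0.16, -0.16 and -0.17 on chromosome 16 in KO1, KO2 and KO3, while the medians of the other 18 chromosomes, X included, lay between -0.06 and 0.14 in all lines. In windows of 20 Mb along chromosome 3 the median ran from -0.17 to -0.36. The rises on these chromosomes were Celsr2, Clca3a1, Pbxip1, Amigo1 and Rbm15 on 3 and Paxbp1, Glis2, Cbr3 and Etv5 on 16. In tumours grown from the same lines the medians were -0.33, -0.26 and -0.25 on chromosome 3 (609 genes) and -0.22, -0.16 and -0.18 on chromosome 16 (350 genes), against -0.03, 0.02 and -0.01 over all 11842 genes tested in both. DNA was not measured here.

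With the genes of these chromosomes set aside, 19 of 23 members of the entry class, 29 of 39 ER chaperones, 31 of 41 COPII, 23 of 41 N-glycan, 27 of 60 COPI and Golgi and 14 of 22 cholesterol genes were lower. Other counts moved more. The proteasome had 5 of 41 lower, and Golgi glycosyltransferases and sulfotransferases 12 of 69, since all 6 of their members on these chromosomes were lower. Both falls among TGF-beta and BMP receptors and transducers, Bmpr1b and Smad9, lie on chromosome 3. The falls named include Sec24d, Ssr2, Ostc, Adh1, Cog6, Pmvk, Elovl6, Tspan5, Tet2, Actl6a, Mrps21, Mrps28, Zmat3, Wdr3 and Mecom on chromosome 3 and Hspa13, Txndc11, Sdf2l1 and Snap29 on 16, and the part of the chromosome in their size was not tested. Sec24d, Ssr2 and Ostc lay at -2.35, -1.74 and -1.83, against the chromosome's median of -0.31. Pmvk, at -0.58, lay closer to it. When the genes of both chromosomes were removed before scaling, 1354 genes were called in the pooled fit and 1280 in every line. The counts of higher genes then went from 4 to 2 for TGF-beta, from 4 to 2 for p53 targets and from 8 to 5 for chromatin remodellers, and calls in either direction from 3 to 1 for the mitochondrial ribosome, from 3 to 1 for ribosome biogenesis and from 1 to 0 for ATF4 targets.

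**Figure D5:**
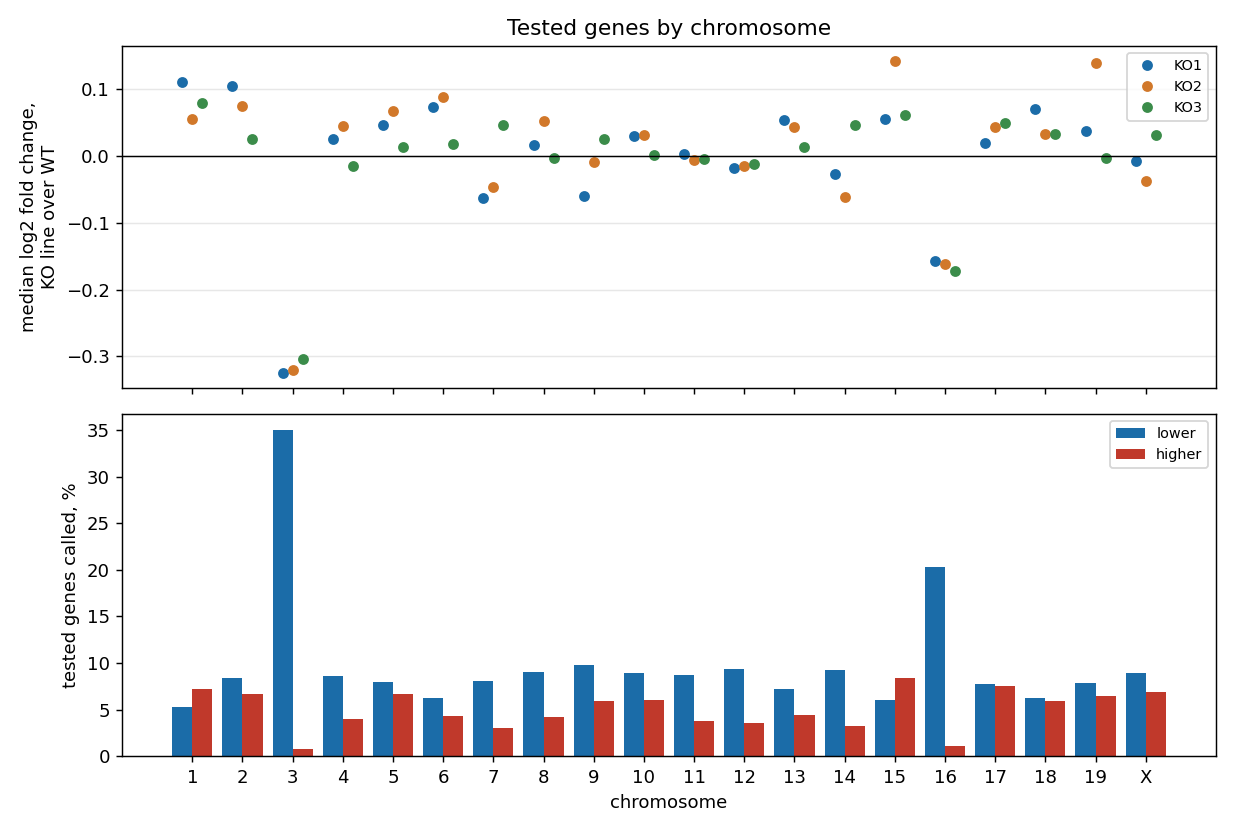
Upper panel, the median log2 fold change of tested genes on each chromosome in KO1, KO2 and KO3 against WT. Lower panel, the share of tested genes called lower (blue) or higher (red); chromosomes 3 and 16 stand below the rest in all 3 lines, with 35.0% and 20.3% of their genes lower.

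Some genes were silent in every KO library. Among genes called in every line, 16 had 0 counts in all 6 KO libraries, and they were chosen for that after the values were seen. Mga, a partner of MAX that represses genes bound by MYC, had 347 and 319 counts in the WT libraries and none in KO, at least 654-fold lower, taking 3 counts over the 6 libraries as the floor of a count of 0. Bcat1, which starts the breakdown of branched-chain amino acids, had 170 and 123 counts in WT, at least 288-fold lower in KO. Hiatl1, Scin, Rgs19, Zfp608 and Zfp462 had 56 or more counts in each WT library and were at least 119.8-fold lower, and Ptp4a3, Hacd1, Pygo1 and Mecom, with 10 to 24 counts in a WT library, at least 21.6-fold. The genes beside them were measured in KO cells. Mapkbp1, 3.12 kb from Mga, was at 9.23 CPM in WT and 13.3 CPM in KO, and Tcea2, 0.348 kb from Rgs19, at 2.17 and 2.55 CPM. Of the 32 nearest tested neighbours of these 16 genes, 9 of which lay over 500 kb away, Gm3244 beside Ptp4a3 was lower and Mapkbp1 higher in every line, against 9.02% and 4.02% of all tested genes. In tumours, which also hold host cells, Mga was at 12.5 to 19.6 CPM in WT and 2.78 to 13.1 CPM in KO, without TMM scaling. The other 5 were Rnu2-10, a small nuclear RNA gene, and 4 pseudogenes of Rpl35a, whose counts are uncertain because near-identical copies can share reads. Ankrd23 showed the reverse, with 0 counts in both WT libraries and 61 in KO. So did Gm10243, with 4606 in KO, but it spans 333 bases, as do all 4 Rpl35a pseudogenes, and whether these loci share reads was not tested. In WT tumours Gm10243 was at 23.5 to 73.3 CPM and the 4 pseudogenes were listed at 0.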

How the data were processed

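Polyadenylated RNA of cultured Myc-CaP cells was sequenced with a stranded kit, per the labels. The authors deposited a table of estimated counts per gene, and the submitters' processing notes name Trim Galore 0.6.7, STAR, Salmon 1.5.2 and GRCm38, with no roles given. The deposited estimated counts were rounded to whole numbers. Genes were filtered by genotype (filterByExpr), scaled by TMM and tested with edgeR 4.0.16 (quasi-likelihood test, R 4.3.3), adjusted by the Benjamini-Hochberg method over 12254 genes at a threshold of 0.05. The pooled fit had genotype only, and a second fit had 4 groups, from which each line against WT and the F test among lines were taken.

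A separate deposited table of estimated counts scaled by transcript length was used as an alternative. On simulated data with known changes over 12254 genes, the pooled fit found 84% of changes of log2 1 and 97% of log2 2, with 3.72% of calls false. The call in every line found 61% and 90%, with 0.658% false, and the F test 71% and 94%, with 9.84% false. The simulated libraries were drawn independently, with 100 genes changed by each size and no other difference between lines. These shares thus do not cover variation that the libraries of a line have in common, and are not error rates of the real calls.

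The members, classes and gene lists were chosen with earlier results of these data known. Genes named were the 12 falls and 12 rises largest in the line nearest to 0, among those called in both fits averaging 2 or more in log2 CPM and with a symbol that is no predicted or clone name, up to 3 genes per described class with the smallest p, and Ern1 and Xbp1. Classes are those with at least 8 tested members, and counts by class carry no test. A first stretch is a window of 12 residues starting within residues 1 to 25 with a mean Kyte-Doolittle hydropathy of at least 2.0, and a later one 19 residues after residue 40 with at least 1.6. Positions and proteins were taken from the GENCODE annotation of GRCm38, and promoters from RefSeq. DESeq2 1.42.0, limma 3.58.1, other scaling, no filter, libraries left out and summed libraries were alternatives. Leaving out chromosomes 3 and 16 was chosen after seeing the data. Some genes that these rules name are not reported here.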

Additional observations from a re-analysis of the deposited data

Results flagged for a closer look

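Of the named genes, 34 differed among the 3 KO lines by the F test in edgeR, in a table where 30.3% of all tested genes did. Adjusted p-values of those reported here follow. Among the largest falls they were 5.13e-06 for Xdh, 2.50e-05 for Prom2, 0.000711 for Spink8, 0.000901 for Adh1 and 0.00908 for Ero1lb. Among the largest rises they were 4.02e-05 for Pdzd7, 0.000176 for Kctd12b, 0.000631 for Usp11, 0.00429 for Sdpr, 0.00898 for Tfcp2l1, 0.0299 for Etl4 and 0.0363 for Zfp385a. Xbp1 had 7.06e-05.

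In lipid and other metabolism they were 0.000713 for Fasn, 0.0083 for Elovl6, 0.0277 for Fads2 and 0.00335 for Aldoc. At the Golgi, the lysosome, the cell surface and the collagen list they were 0.0259 for Cope, 0.0163 for Ctsz, 0.000523 for Ly6c1, 0.0462 for Tspan3, 0.041 for P4ha1 and 0.0232 for Plod3.

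In the chromosome cycle they were 9.83e-05 for Dbf4, 0.00311 for Uhrf1, 0.000223 for Ndc80, 0.000245 for Kif2c, 0.000844 for Kif20b and 0.00889 for Sgol2a. For these 6 genes both KO3 libraries lay below the other 4 KO libraries. Trp53inp1 had 0.00461 and Rrm2b 0.0278.

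In 3 named genes 1 KO library stood apart from the other 5, by a gap of 0.691 of the range for Sec24d (KO3 replicate 1, highest), 0.754 for Txndc11 (KO2 replicate 2, highest) and 0.648 for Pou2f1 (KO3 replicate 1, lowest); these gaps exceed Dixon's critical value for 6 samples. Chance gives about 1 such gap in 20 groups, and the number of named genes examined was 93.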

How the results depend on the processing

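None of the 93 genes named by rule reversed direction under the alternatives in which it was tested, and 82 of them were tested with chromosomes 3 and 16 left out. Apart from Ern1 and Xbp1, the named genes were chosen by large change or small p in these same data. How they fare, here and at the end of this paragraph, therefore does not speak for all calls. The pooled count of 1808 was 1814 with RLE size factors, 1606 with no filter, 1313 with the length-scaled table and 2459 with DESeq2. It was 4780 with lines as groups, 37 with libraries summed per line (36 of them lower), 601 with limma voom and the line as a random block, and 1162, 1137 and 4315 with KO1, KO2 or KO3 left out. Leaving out single libraries gave 378 to 2221. The share of calls that were higher, 33.8% in the pooled fit, was 44.8% with lines as groups, 2.70% with summed libraries, 10.1% with voom, 46.3% without KO3 and 7.41% and 10.3% without WT replicates 1 and 2. The count over every line was 1014 with the length-scaled table and 601 when more than 1.2-fold was asked of each line (glmTreat), and 795 to 1708 without single libraries. The F test passed 2271 genes with the length-scaled table and 2136 to 4285 without single libraries. In these cases the cause was not tested. Summing or leaving out libraries leaves fewer samples, and the pooled count was 2206 and 2221 without KO3 replicates 1 and 2. Of 44 named genes called lower, 9 lost the call without 1 WT library, and of 48 called higher, 40 did.

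The replicate numbers of the libraries share only a number. Deviations of same-numbered libraries correlated at -0.05 to 0.15 over genes, and with the replicate block the counts were 1310 pooled, 1606 in every line and 3637 by the F test.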
